A study of Mus musculus with 6 samples.

Results

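The homeobox genes of the Hoxa and Hoxb clusters that are known from blood-forming cells were followed here in haematopoietic stem cells (HSC) of mice with and without Selp. The 10 genes were taken by name, Hoxa3, Hoxa5, Hoxa7, Hoxa9 and Hoxa10 from the Hoxa cluster and Hoxb2, Hoxb3, Hoxb4, Hoxb5 and Hoxb6 from the Hoxb cluster. Each had 1 probe set on the array, so they make up 10 of 28815 probe sets and 10 of the 19935 genes that a probe set names alone. HSC of Selp-/- mice, deficient in the adhesion receptor P-selectin (SELP), were set against HSC of wild-type (WT) mice to find how P-selectin acts on these cells, and mice of both genotypes were C57BL/6. There were 6 arrays, 3 of Selp-/- and 3 of WT HSC, numbered 1 to 3 within each genotype. The meaning of that number, the age of the mice and the sort are not stated in the labels. Separate mice are not named for the arrays either, and the p-values therefore reflect the spread among these 6 samples, part of which may be technical.

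Hox genes encode transcription factors that bind DNA through a homeodomain, usually together with partners of the TALE class such as Pbx and Meis proteins. Along each cluster the genes lie in the order of their paralogue numbers, and in the embryo they are switched on in that order. In blood formation, genes of both clusters are known to be active in stem and early progenitor cells and to be silenced as cells mature. Hoxa9 is among the best known of them, a factor needed for normal HSC function and, with Meis1, a driver of leukaemia.

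The sequences below are the places where transcripts of the Hoxa genes with the largest differences start, with Hoxb4 beside them as a gene of the other cluster. They are from RefSeq (GRCm38.p6), run 5′ to 3′ from 250 bases before to 50 bases after the start, and are shown since Hoxa5, Hoxa7 and Hoxa9 differed together between arrays. Of the 10 genes, 6 had an entry, and Hoxb2, Hoxb3, Hoxb5 and Hoxb6 had none. Capitals mark the letters TTTATG, the core recognised by Cdx factors, known regulators of Hox genes in the embryo.
Hoxa5, chr6:52204538-52204837, minus strand: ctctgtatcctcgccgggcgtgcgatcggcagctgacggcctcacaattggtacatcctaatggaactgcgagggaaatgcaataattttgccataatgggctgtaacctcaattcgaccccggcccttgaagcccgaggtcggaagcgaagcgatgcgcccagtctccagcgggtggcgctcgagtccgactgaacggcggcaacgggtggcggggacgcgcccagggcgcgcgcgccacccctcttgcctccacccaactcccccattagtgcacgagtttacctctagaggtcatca
Hoxa7, chr6:52218524-52218823, minus strand: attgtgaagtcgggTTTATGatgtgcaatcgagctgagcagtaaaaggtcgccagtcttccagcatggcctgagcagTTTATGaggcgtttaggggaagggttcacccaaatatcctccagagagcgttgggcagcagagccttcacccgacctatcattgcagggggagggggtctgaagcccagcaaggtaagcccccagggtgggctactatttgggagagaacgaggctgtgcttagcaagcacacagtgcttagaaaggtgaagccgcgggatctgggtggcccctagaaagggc
Hoxa9, chr6:52227321-52227620, minus strand: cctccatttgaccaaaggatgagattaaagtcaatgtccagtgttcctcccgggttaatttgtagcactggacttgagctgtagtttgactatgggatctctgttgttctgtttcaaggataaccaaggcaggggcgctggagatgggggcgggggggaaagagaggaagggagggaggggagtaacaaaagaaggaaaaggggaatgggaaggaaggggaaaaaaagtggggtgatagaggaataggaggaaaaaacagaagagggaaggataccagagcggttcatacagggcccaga
Hoxb4, chr11:96318017-96318316, plus strand: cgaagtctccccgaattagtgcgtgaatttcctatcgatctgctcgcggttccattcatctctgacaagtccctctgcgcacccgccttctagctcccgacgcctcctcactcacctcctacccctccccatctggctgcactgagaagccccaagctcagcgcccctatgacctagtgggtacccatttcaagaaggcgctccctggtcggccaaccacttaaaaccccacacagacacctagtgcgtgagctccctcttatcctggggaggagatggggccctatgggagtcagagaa

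Searched on both strands with no overlap between motifs, TTTATG stood at 2 places in the Hoxa7 window, beginning at base -236 and base -173 relative to the start, and in none of the other windows of the 6 genes. Over all 32851 promoter windows of this length, 11.8% held TTTATG. The Pbx-Hox core TGATTNAT was in 3.22% of all windows and in none of these 6 genes, and the Meis core TGACAG was in 19.2% of all windows and in that of Hoxa3 alone. The windows also differed in CG pairs, with 29 in that of Hoxa5, 14 in that of Hoxb4, 9 in that of Hoxa7 and 4 in that of Hoxa9, against a median of 7 over all windows. A match of letters is a description and not a binding site.

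The arrays were not alike within a genotype. The median intensity ran from 638 to 713 in the Selp-/- arrays and from 563 to 751 in the WT arrays. Levels are log2 intensities after background correction and quantile normalization, and 17289 probe sets with a mean level over 8.79 were tested. Both arrays numbered 3, Selp-/- 3 and WT 3, stood apart from the other 4. Of 10 tested HSC markers, 6 were lower in arrays 3 than in arrays 1 and 1, Gata2, was higher, against 7% and 6.08% of all probe sets. Against arrays 2, 7 were lower and 0 higher, against 9.48% and 7.8% of all probe sets. The mean level of the HSC list was 9.37 in Selp-/- 3 and 9.44 in WT 3, against 10.40 to 10.90 in the other 4 arrays. The mast cell and basophil list averaged 11.73 in Selp-/- 3 and 12.21 in WT 3, against 9.13 to 9.52 elsewhere. Of its 7 tested markers, 6 were higher against arrays 1 and 6 against arrays 2, with 0 lower, while Ms4a2, Cma1 and Tpsab1 lay under the filter. The shares of all probe sets called higher were 6.08% and 7.8%. Neutrophil markers averaged 12.30 and 12.41, against 9.996 to 11.48, and monocyte markers 11.43 and 11.04, against 9.84 to 9.99. The erythroid list averaged 9.02 and 9.17, against 9.76 to 10.97, the B lymphoid list 9.03 and 9.28, against 9.81 to 10.28, and the T and NK list 9.99 and 9.89, against 10.10 to 10.15. Megakaryocyte markers averaged 10.75 and 11.53, against 9.73 to 10.60. The level of Selp was not analysed here, as 0 probe sets carried its name alone, and it gives no check of the labels.

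None of the 8 tested Hox genes differed between Selp-/- and WT HSC beyond the spread of the arrays. In a fit of limma with genotype as its term, 0 of the 8 passed an adjusted p of 0.05, as did 0 of all 17289 probe sets (0%), and 0 of the 8 lay under an unadjusted p of 0.05, against 122 probe sets in all (0.706%). With the array number as a replicate block, 0 of the 8 again lay under an unadjusted p of 0.05, against 630 probe sets in all (3.64%). Hoxa3 and Hoxb6 lay under the filter on mean level and were not tested. The 3 Selp-/- and 3 WT values overlapped for all 10 genes, where 4.21% of tested probe sets did not overlap. The mean difference, Selp-/- minus WT, was above 0 for 5 genes and below 0 for 5.

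Hoxa9 measured 10.34, 10.55 and 9.51 in Selp-/- 1, 2 and 3, against 10.58, 10.29 and 9.09 in WT 1, 2 and 3. Its genotype means were 10.13 ± 0.55 in Selp-/- and 9.99 ± 0.79 in WT HSC (log2, SD, n = 3 each). The log2 fold change was 0.15, with a 95% interval from -0.89 to 1.19 (limma, adjusted p = 1). Array 3 was the lowest of its genotype in both, and the genotypes overlapped.

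Hoxb4, whose forced expression is known to expand HSC, measured 9.15, 9.43 and 8.47 in Selp-/- 1, 2 and 3, against 9.30, 9.44 and 9.02 in WT 1, 2 and 3. The log2 fold change was -0.24 (95% interval -0.84 to 0.36, limma, adjusted p = 1). Within numbers the difference was -0.15 for arrays 1, -0.0045 for arrays 2 and -0.56 for arrays 3, so the arrays numbered 3 held most of it. A fit of arrays 1 and 2 without arrays 3, added once the data had been seen, gave -0.08. Hoxb5, a gene that marks long-term HSC in mice, measured 8.57, 9.15 and 8.71 in Selp-/- 1, 2 and 3, against 8.78, 8.83 and 8.73 in WT 1, 2 and 3. Its log2 fold change was 0.03 (95% interval -0.34 to 0.41).

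Hoxa5 gave the lowest mean difference, with -0.50, -0.18 and -0.06 between arrays of number 1, 2 and 3. Their mean was -0.24, and its 95% interval ran from -1.96 to 1.47, since the arrays numbered 3 lie far from the rest in both genotypes. With the array number as a replicate block the interval narrowed to -0.52 to 0.03 and the adjusted p of limma was 0.983. Only Hoxa3, Hoxa5 and Hoxb4 of the 10 genes kept one sign in all 3 numbers, below 0 each time. The interval with the block spanned 0 for all 8 tested genes, and reached 0.50 at its upper end for Hoxa10 and -0.54 at its lower end for Hoxb4. Without the arrays numbered 3, the largest value was 0.28, for Hoxa10, and the lowest -0.34, for Hoxa5.

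**Figure D1:**
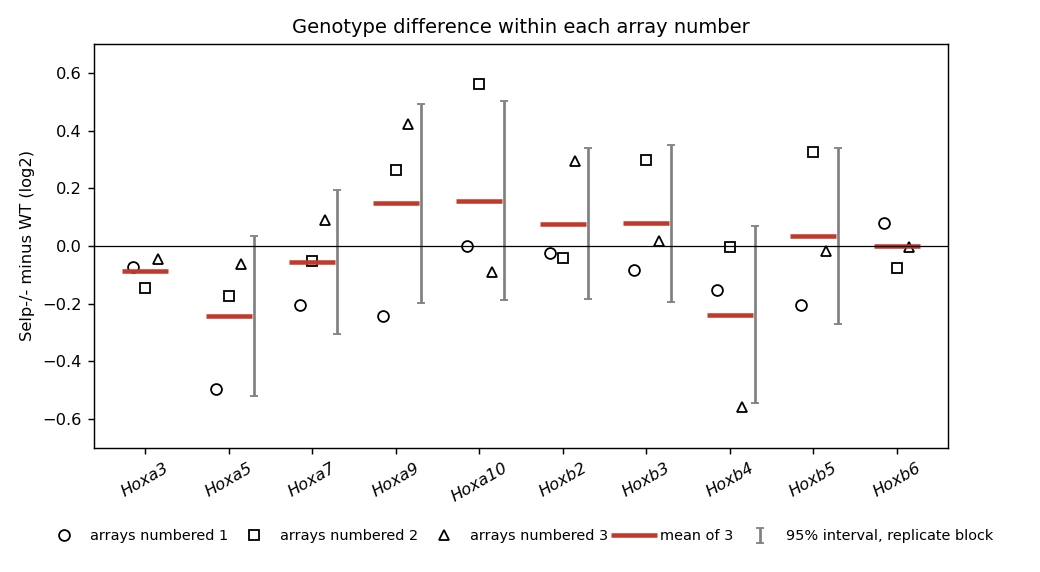
Selp-/- minus WT difference of log2 level (vertical axis) for each of the 10 Hox genes, as 1 open symbol per array number and a red bar for their mean. Grey bars are 95% intervals of the fit with the replicate block for the 8 tested genes, and all of them span 0.

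A moderated F test of the array number, with genotype in the fit, called 3 of the 8 tested genes, Hoxa5, Hoxa7 and Hoxa9, and 2217 of all 17289 probe sets (12.8%). Hoxb2 and Hoxb4 did not pass the F test (limma, adjusted p = 0.0953 and 0.0607). Against arrays 1, Hoxa5, Hoxa7 and Hoxa9 were lower in arrays 3, as were 7% of all probe sets. Against arrays 2 these 3, Hoxb2 and Hoxb4 were lower, as were 9.48% of all. None of the 8 was called higher in arrays 3, against 6.08% and 7.8% of all probe sets in these contrasts. Both arrays 3 lay below the other 4 for 6 of the 8 tested genes, all but Hoxa10 and Hoxb5, against 25.1% of tested probe sets. They lay above them for 0 of the 8, against 20.1%. Hoxa3 and Hoxb6, under the filter, were also lower in both arrays 3 than in the other 4. The median difference of the 8 tested genes was -0.42 for arrays 3 minus 1 and -0.59 for arrays 3 minus 2, against -0.01 and -0.02 over all tested probe sets. Arrays 1 and 2 differed in 0 of the 8 genes, and in 8 probe sets lower (0.0463%) and 1 higher (0.00578%) over the whole array. Fewer cells with the transcript and less RNA per cell cannot be told apart in such bulk samples, and the part of the cell type markers given above in these differences was not tested.

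Hoxa5, a Hox gene known to take part in the choice between myeloid and erythroid fates, had the largest difference. It measured 7.79 in Selp-/- 3 and 7.85 in WT 3, against 9.43 and 9.83 in Selp-/- 1 and 2 and 9.93 and 10.01 in WT 1 and 2. Both arrays numbered 3 thus lay well under the other 4, with no overlap. As deposited, its intensity was 358 in Selp-/- 3 and 388 in WT 3, below the median probe set of these arrays, against 870 and 962 in Selp-/- 1 and 2 and 1055 and 937 in WT 1 and 2. The log2 levels of both arrays 3 lie under the filter value of 8.79, so Hoxa5 passed the filter through arrays 1 and 2 alone. The filter thus favoured its call by number in advance, and the folds depend on how background was corrected. With no filter, Hoxa5 still passed against arrays 1 and against arrays 2 (limma, adjusted p = 0.00291 and 0.00172). The fitted level in arrays 3 was 3.63 times lower than in arrays 1 (log2 difference -1.86, SE 0.14, limma, adjusted p = 0.000855) and 4.28 times lower than in arrays 2 (-2.10, SE 0.14, limma, adjusted p = 0.000466). Without background correction and normalization these log2 differences were -1.33 and -1.31, and both still passed.

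Hoxa9 in the values given above was 2.24 times lower in arrays 3 than in arrays 1 (log2 difference -1.16, SE 0.18, limma, adjusted p = 0.00933) and 2.18 times lower than in arrays 2 (-1.12, SE 0.18, adjusted p = 0.00867). Both arrays numbered 3 lay below the other 4. Without Selp-/- 2 or without WT 2 the difference from arrays 2 was -1.04 and -1.21, with an adjusted p of 0.0616 and 0.0562, past the threshold no longer.

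Hoxa7, another gene of leukaemias with high Hoxa expression, measured 9.27 in Selp-/- 3 and 9.18 in WT 3. It measured 10.02 and 10.26 in Selp-/- 1 and 2, and 10.23 and 10.31 in WT 1 and 2. The log2 difference was -0.89 from arrays 1 (SE 0.13, limma, adjusted p = 0.00766) and -1.06 from arrays 2 (SE 0.13, adjusted p = 0.00327). Without WT 1 the value against arrays 1 was -0.78, with an adjusted p of 0.0537.

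Hoxa3, best known from the formation of the thymus and the pharyngeal arches, lay under the filter, with a mean level of 8.63. It measured 8.12 in Selp-/- 3 and 8.17 in WT 3, against 8.75 and 8.89 in Selp-/- 1 and 2 and 8.83 and 9.04 in WT 1 and 2. The groups by number did not overlap. When all 28815 probe sets were tested, Hoxa3 gave -0.64 against arrays 1 (SE 0.13, limma, adjusted p = 0.0436) and -0.82 against arrays 2 (SE 0.13, adjusted p = 0.0178).

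Hoxa10, which lies next to Hoxa9, gave smaller differences by array number than this neighbour in the cluster. It measured 8.76 in Selp-/- 3 and 8.85 in WT 3, against 9.14 and 9.35 in Selp-/- 1 and 2 and 9.14 and 8.79 in WT 1 and 2. WT 3 thus lay between WT 1 and WT 2. The log2 difference was -0.33 against arrays 1 (95% interval -0.76 to 0.09) and -0.26 against arrays 2 (95% interval -0.68 to 0.16), and neither passed. Its interval against arrays 1 overlaps at its lower end with that of Hoxa9 (95% interval -1.59 to -0.74). The difference between the genes was not tested itself.

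**Figure D2:**
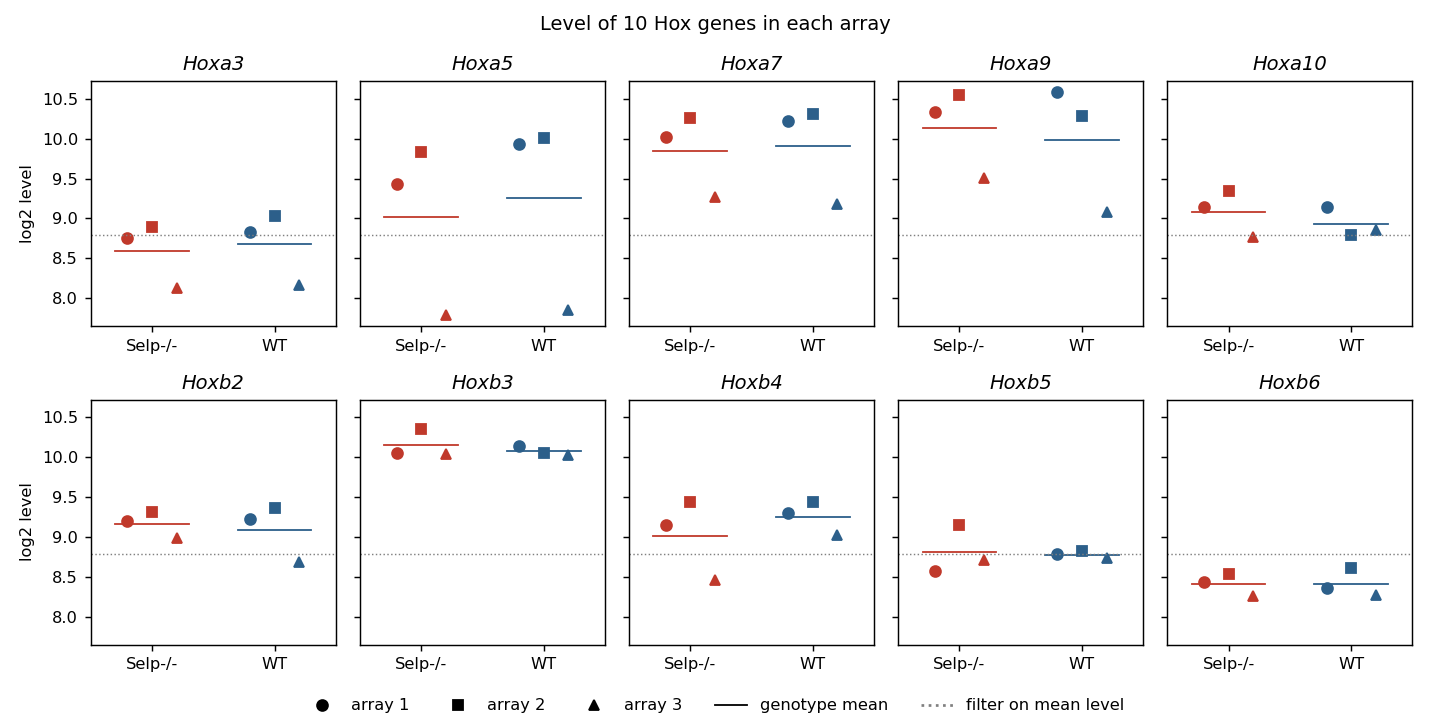
Log2 level of each of the 10 Hox genes (vertical axis) by genotype, with Selp-/- in red on the left and WT in blue on the right, 1 symbol shape per array number and a bar at each genotype mean. Triangles, the arrays numbered 3, lie below the other 4 arrays for 8 of the 10 genes, all but Hoxa10 and Hoxb5, by a wide gap for Hoxa5 and by little for Hoxb3, where all 6 arrays lie from 10.02 to 10.35.

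Of the Hoxb genes, Hoxb3, which acts redundantly with Hoxb4 in HSC proliferation, measured 10.04 in Selp-/- 3 and 10.02 in WT 3, against 10.05 and 10.35 in Selp-/- 1 and 2 and 10.14 and 10.06 in WT 1 and 2. Apart from Selp-/- 2 the arrays lay within a narrow span. The log2 difference was -0.07 against arrays 1 (95% interval -0.40 to 0.27) and -0.17 against arrays 2 (95% interval -0.51 to 0.16). Both intervals leave out a halving, a log2 difference of -1, in either comparison. For Hoxb5 the differences were 0.04 (95% interval -0.33 to 0.42) and -0.27 (95% interval -0.64 to 0.11), and neither passed.

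Hoxb4 was 1.62 times lower in arrays 3 than in arrays 2 (log2 difference -0.69, SE 0.16, limma, adjusted p = 0.0290), and gave -0.48 against arrays 1 (adjusted p = 0.0949). Its mean level in arrays 3 was 8.74, under the filter value, with Selp-/- 3 at 8.47 and WT 3 at 9.02. Hoxb4 thus passed the filter through the higher levels of arrays 1 and 2, which favoured its call by number in advance. With no filter the call against arrays 2 was lost (limma, adjusted p = 0.0597). Array 3 minus the mean of arrays 1 and 2 was -0.83 in Selp-/- and -0.35 in WT HSC, a difference that was not tested. The call was lost without Selp-/- 2 (-0.52, adjusted p = 0.140), without Selp-/- 3 (-0.45, adjusted p = 0.144) and without WT 2 (-0.87, adjusted p = 0.0632). Hoxb2, known from hindbrain patterning, gave -0.50 against arrays 2 (SE 0.14, limma, adjusted p = 0.0484) and -0.37 against arrays 1 (adjusted p = 0.123). That call lay at the threshold and was lost without any one of 5 of the 6 arrays, with an adjusted p from 0.0608 to 0.313. Hoxb6, which drives leukaemia in mice when overexpressed, lay under the filter, at 8.26 in Selp-/- 3 and 8.27 in WT 3, against 8.44 and 8.54 in Selp-/- 1 and 2 and 8.36 and 8.62 in WT 1 and 2.

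Position along the clusters was compared through each gene's own difference, since levels of different probe sets cannot be set against each other. For each gene, array 3 was set against the mean of arrays 1 and 2 of its genotype. Over the 10 genes the difference ran from -1.84 to -0.15 in Selp-/- and from -2.12 to -0.07 in WT HSC. Over the 5 other tested Hox genes it ran from -0.79 to 0.17 and from -0.88 to 0.09. Among the 10 genes, which were chosen with earlier results known, medians were taken of array 3 minus that mean. They were -0.87 in Selp-/- and -1.09 in WT HSC for the 5 Hoxa genes, and -0.23 and -0.22 for the 5 Hoxb genes. Both Hoxb medians were the values of Hoxb6, which lay under the filter with a mean level of 8.41. Hoxb5 passed the filter narrowly, with a mean level of 8.80. Low levels leave less room for a fall, so these medians cannot show whether the clusters differ. Of the Hoxa genes, Hoxa3 also lay under the filter, and it gave -0.70 in Selp-/- and -0.76 in WT HSC. Hoxa5 gave -1.84 in Selp-/- and -2.12 in WT, Hoxa7 -0.87 and -1.09, and Hoxa9 -0.94 and -1.35. Hoxa6, which lies between Hoxa5 and Hoxa7 and is no member of the 10, gave -0.72 against arrays 1 and -0.95 against arrays 2 (SE 0.13 each, limma, adjusted p = 0.0173 and 0.00518). The 4 tested genes from Hoxa5 to Hoxa9 in the order of the cluster were thus all lower in arrays 3. Hoxa4, the next gene on one side, gave -0.08 and -0.09 in the same contrasts (adjusted p = 0.754 and 0.740), and Hoxa10 on the other side is described above. Both arrays 3 lay below the other 4 for 4 of the 5 Hoxa and 4 of the 5 Hoxb genes, and the clusters were not tested against each other. By paralogue number, Hoxa5 and Hoxb5 differed by -1.86 and 0.04 against arrays 1, Hoxa3 and Hoxb3 by -0.64 (with no filter) and -0.07, and Hoxa4 and Hoxb4 the other way round, by -0.08 and -0.48.

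**Figure D3:**
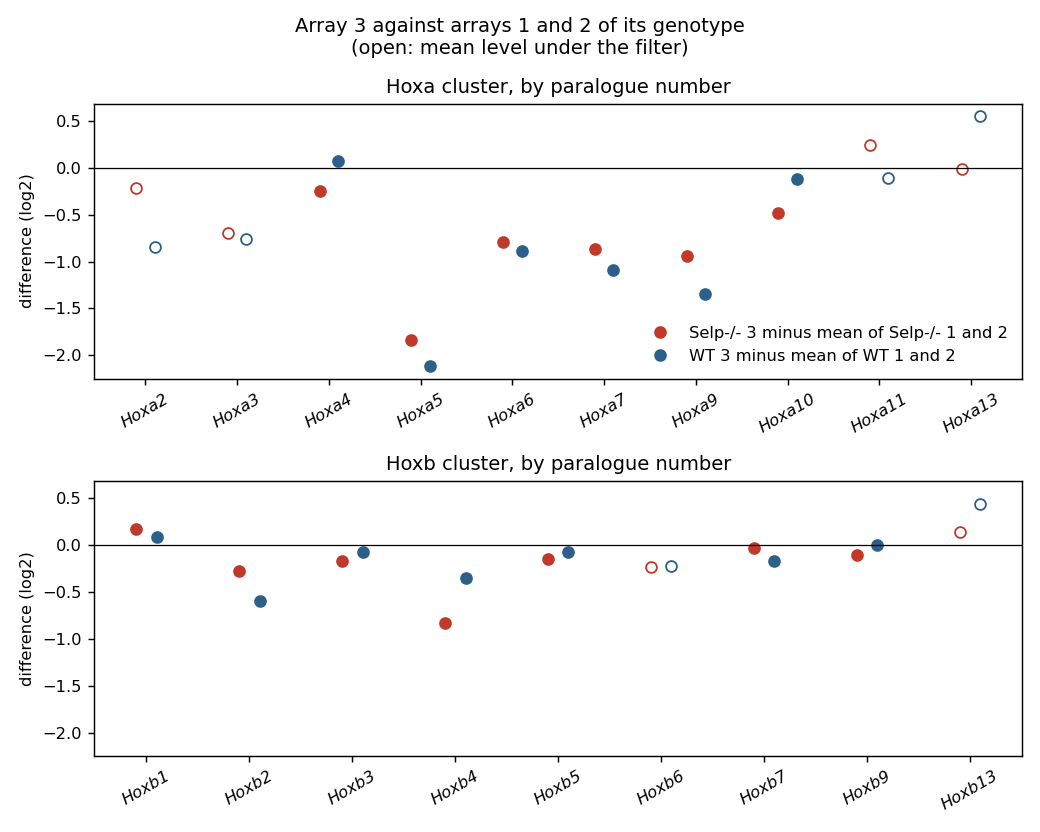
Difference of log2 level between array 3 and the mean of arrays 1 and 2 of the same genotype (vertical axis) for genes of the Hoxa cluster (above) and Hoxb cluster (below) in order of paralogue number, Selp-/- in red and WT in blue. Filled points were tested and open points lay under the filter, and Hoxa5 lies lowest, at -1.84 in Selp-/- and -2.12 in WT.

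RefSeq records of some of these genes overlap, Hoxa3 with Hoxa4, Hoxa5 and Hoxa6, and Hoxb3 with Hoxb4 and Mir10a, so signal from a long transcript could reach a neighbour's probe set, which was not tested. Of the other 27 Hox genes with a probe set of their own, 5 passed the filter, 2 of the Hoxa and 3 of the Hoxb cluster. No gene of the Hoxc or Hoxd cluster did, and their mean levels ran from 7.54 to 8.35 for 9 Hoxc genes and from 7.83 to 8.77 for 9 Hoxd genes. Hoxb7 and Hoxb1 gave -0.08 and 0.22 for arrays 3 minus 1 and passed in neither contrast. By genotype, the smallest p among these 5 genes belonged to Hoxb7, with 8.90 ± 0.08 in Selp-/- and 9.06 ± 0.11 in WT HSC (log2, SD, n = 3 each) and a log2 fold change of -0.16 (SE 0.10). Hoxa4 followed with 0.09 (SE 0.13).

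Small RNAs are encoded between the Hox genes, miR-196b beside Hoxa9, miR-196a-1 in the Hoxb cluster and miR-10a beside Hoxb4, and they are known to act on Hox transcripts. Their mature forms from RefSeq (GRCm38.p6) are shown for their seeds, bases 2 to 8, which are in capitals, and which the miR-196 forms of both clusters share.
mmu-miR-196b-5p: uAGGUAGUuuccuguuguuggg
mmu-miR-196a-5p: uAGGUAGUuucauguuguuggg
mmu-miR-10a-5p: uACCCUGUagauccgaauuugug

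The probe set of Mir196b measured 8.74 in Selp-/- 3 and 8.87 in WT 3, against 8.81 and 9.20 in Selp-/- 1 and 2 and 9.04 and 8.72 in WT 1 and 2, and it passed in no contrast. The groups overlapped, unlike those of Hoxa9 beside it. Whether such a probe set reads the mature form was not tested. Those of Mir10a and Mir196a-1 lay under the filter, at 6.43 to 6.75 and 7.72 to 8.02 over the 6 arrays. Among genes at the edges of the clusters, 6 of 13 with a probe set were tested and 1 was called by number, against 12.8% of all probe sets. That gene was Skap1, an adaptor of T cells and integrin signalling, which measured 9.11 in Selp-/- 3 and 10.21 in WT 3, against 8.58 and 8.19 in Selp-/- 1 and 2 and 8.59 and 8.47 in WT 1 and 2. It passed the filter through arrays 3 alone, where it is high, and therefore had to differ. Skap2, Hibadh and Snx11 gave 0.15, -0.21 and 0.14 for arrays 3 minus 1 and did not pass. By genotype Skap1 gave -0.46 (SE 0.48) and Snx11 -0.11 (SE 0.12).

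Partners of Hox proteins were read from 6 tested genes of the TALE class. Meis1, the cofactor of Hoxa9 in HSC and leukaemia, was the 1 gene called by number (16.7%, against 12.8% of all probe sets). It measured 9.33 in Selp-/- 3 and 9.95 in WT 3, against 11.35 and 11.90 in Selp-/- 1 and 2 and 11.48 and 11.88 in WT 1 and 2. Both arrays 3 lay below the rest, as for Hoxa5 and Hoxa9. The level was 3.43 times lower than in arrays 1 (log2 difference -1.78, SE 0.18, limma, adjusted p = 0.00203) and 4.75 times lower than in arrays 2 (-2.25, SE 0.18, adjusted p = 0.000744). Pbx4, Pknox1 and Meis3 gave -0.23, -0.32 and 0.19 for arrays 3 minus 1 and did not pass. By genotype Pbx3 gave -0.19 (SE 0.15) and Pbx4 -0.18 (SE 0.15), with an adjusted p of 1 from limma for each.

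Factors known to keep Hox genes active include the methyltransferase Kmt2a (MLL) and its partners. Of 19 tested genes of this list, 4 were called by number (21.1%, against 12.8% of all probe sets) and none by genotype. Mllt3, a partner of MLL in leukaemic fusions and a known maintainer of HSC, was 1.99 times lower in arrays 3 than in arrays 1 (log2 difference -0.99, SE 0.12, limma, adjusted p = 0.00443). Kmt2a itself was 1.70 times lower by the same contrast (-0.76, SE 0.13, limma, adjusted p = 0.0147). The acetyltransferase Kat6a gave -0.54 and Psip1, which ties MLL to chromatin, -0.66 (limma, adjusted p = 0.0377 and 0.0244). By genotype Cdx2 gave 0.11 (SE 0.11) and Aff4 -0.14 (SE 0.15).

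Polycomb proteins are known to silence Hox genes, and transcripts of this group were read next. Of 22 tested genes, 4 were called by number (18.2%, against 12.8% of all probe sets), Rnf2, Ezh2, Cbx2 and Cbx7. For arrays 3 minus 1 the log2 differences were -0.70, -0.65, -0.84 and -0.47, of which that of Cbx7 did not pass (limma, adjusted p = 0.0180, 0.0223, 0.0247 and 0.0823). Rnf2 and Ezh2 are the catalytic subunits of the complexes PRC1 and PRC2, and Cbx2 and Cbx7 read the mark that PRC2 sets. By genotype Cbx8 gave 0.11 (SE 0.10) and Pcgf3 -0.12 (SE 0.14).

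Genes reported as targets of Hoxa9 in haematopoietic cells differed by array number in 8 of 9 tested genes (88.9%, against 12.8% of all probe sets). Of the 8, 7 were lower in arrays 3 and Id2 was higher. Flt3, the cytokine receptor of multipotent progenitors, measured 9.36 in Selp-/- 3 and 9.57 in WT 3, against 11.75 and 11.93 in Selp-/- 1 and 2 and 12.14 and 11.92 in WT 1 and 2. It was thus 5.59 times lower than in arrays 1 (log2 difference -2.48, SE 0.14, limma, adjusted p = 0.000367). Cd34, a surface protein of progenitors, and Lmo2, a transcriptional bridging factor of HSC, gave -1.22 and -1.36 by the same contrast (limma, adjusted p = 0.00134 and 0.00243). Id2, an inhibitor of bHLH factors, measured 12.80 in Selp-/- 3 and 12.78 in WT 3, against 10.17 and 11.08 in Selp-/- 1 and 2 and 9.81 and 10.62 in WT 1 and 2. Several of these genes also mark stem and progenitor cells, as the HSC list above does. By genotype Pim1 gave 0.13 (SE 0.33) and Id2 0.28 (SE 0.90), and none passed.

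**Figure D4:**
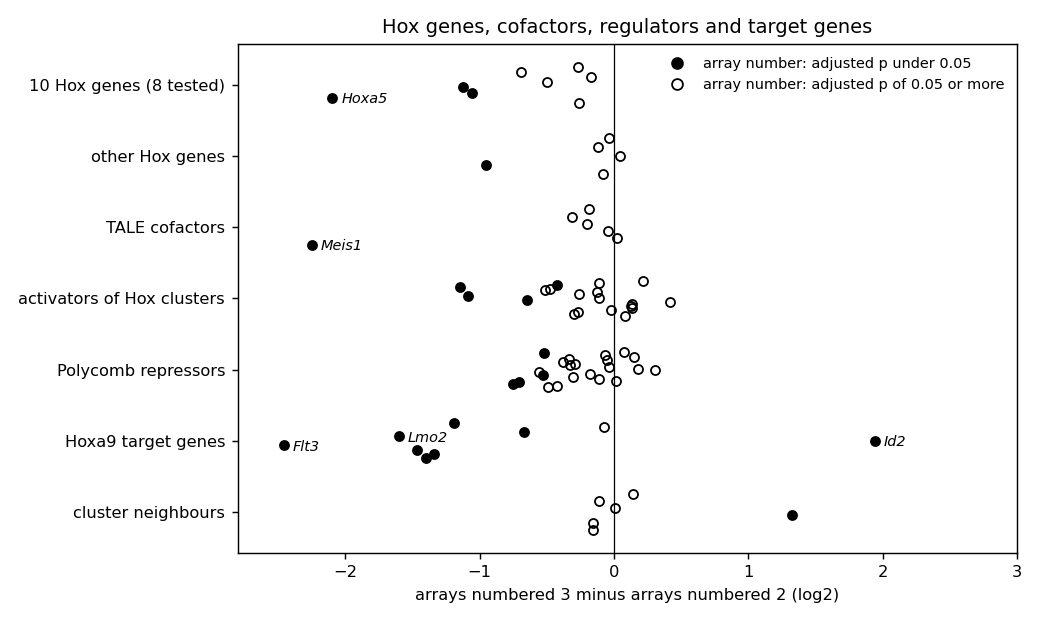
Log2 difference of arrays numbered 3 minus arrays numbered 2 (horizontal axis) for each tested gene of the Hox lists, 1 point per gene and 1 row per list, filled where the F test of the array number passed. Hoxa5, Meis1 and Flt3 lie at -2.10, -2.25 and -2.46, and Id2 lies on the other side at 1.94.

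Genes whose pattern over the 6 arrays was closest to each Hox gene were taken by the root mean square difference of log2 levels centred on their mean. For Hoxa5 these were Gimap6 and Myct1, at 0.12 each, while Hoxa5 itself spanned 2.22 over the arrays. Hoxa7 lay nearest to Kat6b and Iqgap2, at 0.04 and 0.05, and Hoxa9 to Ldhb and Pcbd1, at 0.09 each. Hoxa10 lay nearest to Chd6 (0.03) and Dab2ip (0.04), Hoxb2 to Nsd2 (0.02) and Adgrl2 (0.03), and Hoxb4 to Klhl6 and Sigirr (0.05 each). Hoxb3 lay nearest to Wdcp and G370120E05Rik, at 0.02 and 0.03, and Hoxb5 to Ramp2 and Adamts9, at 0.04 each. Between Hox genes by the same measure, Hoxb3 and Hoxb5 were the closest pair at 0.09, Hoxa7 and Hoxa9 lay at 0.18, and Hoxa5 lay at 0.90 from Hoxb3 and from Hoxb5. Each likeness was taken over 6 arrays, of which 2 stand apart.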

How the data were processed

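Expression was measured on 6 Affymetrix whole-transcript mouse arrays, 3 of Selp-/- and 3 of WT HSC. The authors deposited 1 linear intensity for each probe set and array, and MAS5 is named without a version, per the submitters' processing notes. All deposited intensities were multiples of 0.5, array medians differed, and any scale factor is unknown. The table had 0 columns without a sample. The genome build and the sort of the HSC are not given in the sources used here.

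Intensities were background-corrected (normexp, offset 50), log2-transformed and then quantile normalized across arrays with limma 3.58.1 under R 4.3.3. Probe sets under the 40th percentile of mean level were left out. Genotype was fitted alone (lmFit, eBayes with trend), and array number in a fit beside genotype, with an F test and all 3 contrasts between numbers. Tests were two-sided, with Benjamini-Hochberg adjustment over all 17289 probe sets and a threshold of 0.05. The fits were also run on simulated data with independent noise, and for the genotype fit these held no shift between array numbers. The arrays here hold such a shift. The simulation thus cannot show how the unblocked genotype fit performs on them. Probe sets were named from the platform annotation through gene identifiers in a RefSeq table (GRCm38.p6): 21780 had 1 symbol, of which 21689 matched a RefSeq gene, 1605 had several and 5430 none, and only those with 1 were named. A gene with several probe sets was counted at its brightest tested one.

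Arrays of the same number deviated together from their genotype means, with correlations of 0.43, 0.53 and 0.81 for numbers 1, 2 and 3. This meets the bar for pairing, so the replicate block was run beside the unblocked genotype fit. Deviations from a genotype mean sum to 0, so the shared shift of arrays 3 raises the correlations for numbers 1 and 2. Arrays of unlike number were not compared, so these values cannot show that arrays 1 and 2 are paired by number. Genotype intervals are from the unblocked fit unless the block is named. The members and gene lists were chosen with earlier results of these data known. Named were the 10 genes, up to 4 genes of each list by smallest p for array number and 2 for genotype, and the 2 genes nearest in pattern to each tested member. The 3 small RNAs and the cell type markers named were chosen after their values were seen. The number of arrays limits the precision. Alternatives were other background, scaling, filter and variance settings, the replicate block and leaving out each array.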

Additional observations from a re-analysis of the deposited data

How the results depend on the processing

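No Hox gene of the set passed by genotype under any of 14 other settings, and 3 passed by array number under 10 of 12. The others were no filter, with 4, where Hoxa3 joined, and a filter at the 60th percentile, with 2, which leaves out Hoxa5. Over all probe sets the genotype count was 0 under each setting except arrays 1 and 2 alone, which was added once the data had been seen and gave 4. With the replicate block it was 0, over all probe sets and in the set, and the block changed no call. The count by array number was 5901 without background correction and normalization, where the median of all probe sets moved by 0.31 for arrays 3 minus 2, -0.22 for arrays 2 minus 1 and 0.11 for genotype. It ran from 1007 without WT 3 to 2239 without Selp-/- 1, and was 1431 without Selp-/- 3. Differences that turned sign had not passed, and the cause was not tested. By genotype, leaving out 1 array in turn, which also unbalances the array numbers, gave -0.949 to 0.370 for Hoxa5, -0.418 to 0.233 for Hoxa7, -0.302 to 0.460 for Hoxa9, -0.122 to 0.210 for Hoxb2, -0.0248 to 0.133 for Hoxb3, -0.448 to 0.0373 for Hoxb4 and -0.136 to 0.153 for Hoxb5. Hoxa7 gave 0.0564 without normalization, and Hoxb2 -0.0322 in arrays 1 and 2 alone. For arrays 2 minus 1, without normalization, Hoxa5 gave -0.0129, Hoxa7 -0.138, Hoxb2 -0.0630 and Hoxb3 -0.188, and Hoxb3 gave -0.0116 with median centring. Leaving out 1 array gave -0.334 to 0.253 for Hoxa9, -0.376 to 0.228 for Hoxa10 and -0.0573 to 0.275 for Hoxb3. For arrays 3 minus 1, Hoxb3 gave 0.0038 without normalization and -0.187 to 0.0562 leaving out 1 array, and Hoxb5 -0.135 to 0.224. For arrays 3 minus 2, without normalization Hoxa10, Hoxb3 and Hoxb5 gave 0.0719, 0.192 and 0.0690, or -0.24, -0.12 and -0.24 relative to the median of all probe sets, and Hoxa10 ran from -0.563 to 0.0419 leaving out 1 array. Against arrays 2, Hoxb4 and Hoxb2 also lost their calls without normalization (-0.25 and -0.10) and with no filter (limma, adjusted p = 0.0597 and 0.0957), and Hoxb2 without a variance trend (adjusted p = 0.0508). Without background correction and normalization the differences against arrays 2 shrank to -1.31 for Hoxa5, -0.56 for Hoxa7 and -0.61 for Hoxa9, or -1.62, -0.87 and -0.92 relative to the median of all probe sets, and all 3 still passed. Hoxa5 stayed past the threshold with each array left out, from -2.05 to -1.67 against arrays 1 and from -2.23 to -1.96 against arrays 2.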
